A study of Homo sapiens with 9 samples.

Results

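The DEAD-box RNA helicases were followed as a gene set in a sequencing study of DDX3X, an X-linked member of the family. A list of 34 helicase genes was matched to the deposited Ensembl identifiers through GENCODE v29, which paired 33 of them with a gene in the count tables. DDX52 was not matched and is not analysed here. All 33 matched genes had at least 1 CPM (reads scaled to the library's total in genes) in at least 2 libraries, and they were tested among 16155 genes that met the same filter.

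RNA came from Daoy, an established human medulloblastoma line (a tumour of the cerebellum). Control 1 was the parental line and control 2 its vector control. The knockdown populations carried a tetracycline-inducible hairpin in tet-pLKO-puro, against the 3′ UTR of DDX3X in shDDX3X 1 and shDDX3X 3 and against its open reading frame in shDDX3X 2. Re-expression libraries came from cells that held the 3′ UTR hairpin and FLAG-tagged DDX3X in pCMV10-3xFlag, either wild type or with the change G302V, R534H or P568L. Each of these 4 lines gave 1 library, so the 3 mutants were compared as 1 group of 3. The knockdown cells are polyclonal populations. A single treatment text, doxycycline at 1 µg/ml for 72 h, stands with every library, and whether both controls were exposed is not stated. The drug and the knockdown cannot be told apart in comparisons with control.

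DEAD-box proteins use ATP to bind and locally unwind RNA, and most act inside large complexes: the nuclear pore, the spliceosome, the nucleolar machinery that builds ribosomes, and the initiation and decay machinery of the cytoplasm. They share a helicase core of paired RecA-like domains, and the family is named after the amino acids aspartate, glutamate, alanine and aspartate in one of its conserved motifs. DDX3X is best known for helping ribosomes start on mRNAs with structured leaders, for stress granules and for innate immune signalling. It is recurrently mutated in medulloblastoma, mainly within the helicase core. A Y-linked paralog, DDX3Y, is closely related to it.

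The re-expressed mutants alter single codons of this core, shown here with the DEAD box itself so that their places can be compared. The stretches are reference sequence (GENCODE v29, GRCh38, chromosome X, plus strand) of the principal DDX3X transcript, which encodes 662 residues in 17 exons. Capitals mark the codon that each mutant changes, or the 4 codons of the DEAD box, and positions count from 1 at the initiator methionine.
G302V: tgcgtggtttatGGTggtgccgatatt
DEAD box: gtgttaGATGAAGCTGATcggatg
R534H: ggtcgtacgggaCGTgtaggaaacctt
P568L: aaacaagaagtgCCGtcttggttagaa
The G302V codon lies in coding exon sequence at chrX:41344278-41344280 (exon 10), the DEAD box (residues 347 to 350) at chrX:41345193-41345204 (exon 11), the R534H codon at chrX:41346607-41346609 (exon 14) and the P568L codon at chrX:41346945-41346947 (exon 15). R534H changes the last residue of motif VI, the arginine-rich motif that begins at residue 527 and takes part in ATP hydrolysis. The other 2 mutated residues lie outside the DEAD box and motif VI.

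The libraries held 8216568 to 13030572 reads in genes. The numbers in the deposited names put control 1, shDDX3X 1 and shDDX3X 2 in one run of numbers (series A, 3 libraries) and the other 6 in another (series B). No label says what the numbers stand for. Reads that did not align made up 5.24% to 5.73% of the total in series A and 19.6% to 24.0% in series B, and series was therefore a term in the fit reported here. Of 11 markers of cerebellar granule precursors and sonic hedgehog medulloblastoma, 6 had a median of at least 5 CPM (PAX6, ZIC1, ZIC2, GLI2, PTCH1 and SFRP1), whereas ATOH1, BARHL1 and NEUROD1 stayed under 1 CPM in all libraries. Of 16 markers of blood, endothelial, epithelial, glial and neuronal cells, 0 had a median of 5 CPM, and their summed level was 11.04 to 13.5 CPM in the controls and 9.55 to 11.6 CPM in the knockdowns. Nothing in the labels says that replicates came from separate cultures. The groups also mix the parental and vector lines, different hairpins or different mutants. The p-values thus reflect a library-to-library spread that holds these differences. Beyond them it could be purely technical.

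DDX3X itself was at 683.2 CPM in control 1 and 452.5 CPM in control 2. It was at 249.0, 138.9 and 182.5 CPM in shDDX3X 1, 2 and 3. Every knockdown library lay below both controls, and the hairpin against the open reading frame gave the lowest value. In the fit DDX3X fell by 1.60 ± 0.24 (SE) on the log2 scale, to 0.329 of the control level (95% confidence interval 0.228 to 0.474), with an adjusted p of 0.0357 in edgeR's quasi-likelihood test. The 3 within-series log2 ratios of knockdown to control were -1.46, -2.30 and -1.31. Without control 1 the log2 fold change was -1.31. That fit sets shDDX3X 3 against control 2, 1 library each, and so repeats the last of these ratios. The direction did not depend on control 1, but the fit cannot show what the call rests on. The call was lost when any 1 of the mutant libraries was left out. The log2 fold change was then -1.60 in each, with adjusted p-values of 0.0902, 0.117 and 0.133 (edgeR).

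The question put to the other 32 helicases was whether any of them rose as DDX3X was lost. By this test none did: 1 of the 33 genes was called at an adjusted p of 0.05 (edgeR), DDX3X itself, against 0.675% of all 16155 genes tested. At an unadjusted p below 0.05, 3 of the 33 were higher (DDX49, DDX51 and DDX54) and 3 lower (DDX3X, DDX25 and DDX1), beside 13.0% and 9.04% of all genes. Without DDX3X, the target of the hairpins, 2 were lower. DESeq2, run as an alternative, called DDX49, DDX51 and DDX54 higher along with DDX3X lower, beside 6.75% of the genes it tested called higher and 2.25% lower. Among the other 32 genes, 13 had a positive and 19 a negative fold change, with a median log2 fold change of -0.07 beside -0.01 for all genes. The upper 95% confidence limit lay under a 2-fold rise for 28 of the 32 and under a 1.5-fold rise for 21. Among all 16155 genes tested, it lay under these limits for 11540 and 7971. Whether the helicases differ from all genes in this was not tested. The 4 genes whose interval reached 2-fold were DDX49, DDX51, DDX54 and DDX60L. Without control 2 the log2 fold changes of DDX49, DDX51 and DDX54 were 1.51, 1.13 and 1.68, and without shDDX3X 3 they were 1.52, 1.13 and 1.68. Because of the series term, both fits set shDDX3X 1 and 2 against control 1 alone. They are therefore 1 contrast that rests on a single control library, and not 2 checks. Without control 1 only shDDX3X 3 against control 2 is left, with log2 fold changes of 0.24, 0.45 and -0.09.

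**Figure D1:**
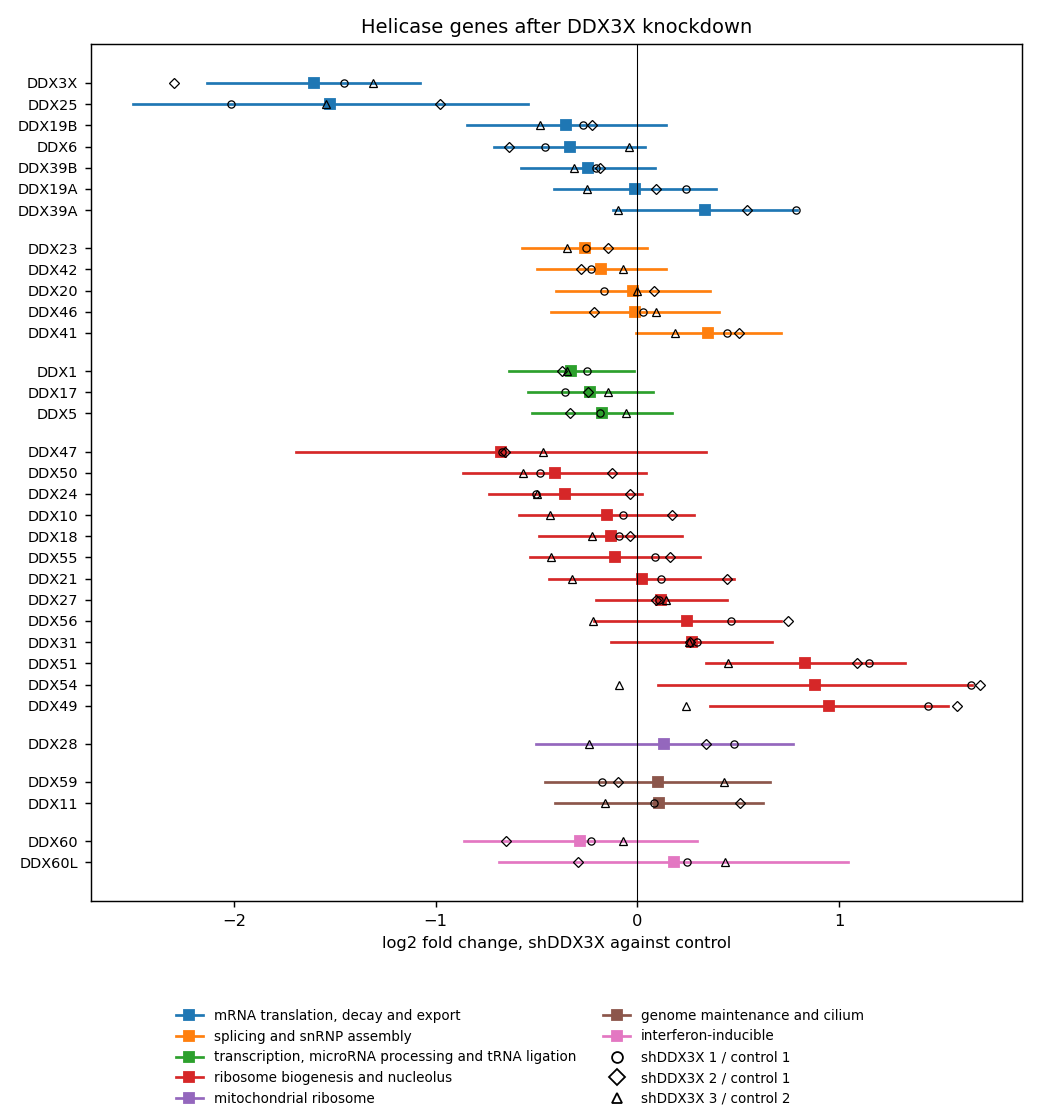
Log2 fold change of shDDX3X (3 libraries) against control (2 libraries) for the 33 helicase genes, grouped by role. Squares are the fitted values with their 95% confidence intervals and open symbols the within-series ratios of each knockdown library. DDX3X and DDX25 lie farthest to the left, and for DDX49 and DDX54 the series B ratio (triangle) lies far from both series A ratios.

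Summed over the set, the level of the other helicases changed far less in the knockdowns than that of DDX3X. In series B the sum was below control 2 in every other library. The other 32 helicases together held 4694 and 4238 CPM in the controls, 4531, 4718 and 3819 CPM in the 3 knockdowns, 3745 CPM with wild type, and 3783, 3902 and 4145 CPM with G302V, R534H and P568L. Set against the control of its series, that sum was 96.5%, 100.5% and 90.1% in the knockdowns, while DDX3X was at 36.4%, 20.3% and 40.3%. DDX3X supplied 12.7% and 9.65% of the reads of the whole set in the controls and 5.21%, 2.86% and 4.56% in the knockdowns. These are shares of reads, which depend on transcript length, not of molecules.

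Per kilobase of annotated exon, the mean level over the 9 libraries ran from 0.18 CPM for DDX47 and 0.33 CPM for DDX25 to 99.4 CPM for DDX5, with DDX3X at 17.8 CPM. The DDX3X mean includes the libraries with a hairpin against it. Before division by length it was 283.6 CPM over the 9 libraries and 567.9 CPM in the controls. The annotated exons of DDX3X span 15892 bases, more than any other helicase listed here, all annotated transcripts combined. On the same scale DDX21 and DDX56 were at 66.9 and 66.1 CPM per kilobase. The set thus spans abundant helicases of the nucleus and nucleolus and genes near the limit of the filter.

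Helicases of mRNA translation, decay and export were the only group beside the nucleolar one with members beyond a 1.5-fold fitted change. Of its 7 genes 1 was called lower (DDX3X), 6 had a negative fold change, and the median was -0.34. DDX25, a helicase known from testicular germ cells where it takes part in mRNA export and storage, was at 8.26 and 6.21 CPM in the controls and at 1.90, 4.11 and 2.01 CPM in the knockdowns. The groups did not overlap. Its log2 fold change was -1.52 ± 0.44 (SE), close in size to that of DDX3X, with an adjusted p of 0.0989 (edgeR), and its level was low in every library. The within-series ratios were -2.01, -0.98 and -1.54.

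DDX6, an activator of decapping and a core component of P-bodies, was at 193.4 and 111.6 CPM in the controls and 140.6, 124.2 and 108.4 CPM in the knockdowns. Control 2 lay within the range of the knockdowns, and the log2 fold change of -0.34 ± 0.17 did not pass the test (adjusted p 0.274, edgeR). DDX19B, which releases proteins from mRNA at the cytoplasmic face of the nuclear pore, was at 11.3 and 15.1 CPM in the controls and 9.35, 9.64 and 10.8 CPM in the knockdowns. These groups did not overlap, although the log2 fold change was only -0.35 ± 0.22 (adjusted p 0.388, edgeR). Its near-identical neighbour DDX19A had a log2 fold change of -0.01 ± 0.18.

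The mRNA export helicases DDX39A and DDX39B are close paralogs, and DDX39B is the core ATPase of the TREX complex. DDX39A was at 103.2 and 190.4 CPM in the controls and 178.2, 150.5 and 178.1 CPM in the knockdowns. Only control 1 stood apart, and the log2 fold change of 0.34 ± 0.20 (adjusted p 0.371, edgeR) became -0.10 without it. DDX39B was at 112.6 and 107.4 CPM in the controls and 97.8, 99.0 and 86.5 CPM in the knockdowns, without overlap, and its log2 fold change of -0.24 ± 0.15 did not pass the test (adjusted p 0.371, edgeR).

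Among helicases of the spliceosome and of small nuclear ribonucleoproteins, 0 of 5 were called and the median log2 fold change was -0.02. DDX41, which joins the late spliceosome and is also described as a sensor of DNA, was at 60.4 and 84.8 CPM in the controls and 82.2, 85.7 and 96.7 CPM in the knockdowns. Its log2 fold change was 0.35 ± 0.16 (adjusted p 0.236, edgeR), and control 2 overlapped the knockdowns. DDX23, the U5 helicase that helps exchange U1 for U6 at the 5′ splice site, was at 262.1 and 254.6 CPM in the controls and 220.0, 237.3 and 200.1 CPM in the knockdowns. The groups were separate, with a log2 fold change of -0.26 ± 0.14 (adjusted p 0.305, edgeR). DDX46 and DDX42, both of the U2 branch-site step, and DDX20 of the SMN complex had log2 fold changes of -0.01, -0.18 and -0.02.

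The 3 genes for transcription, microRNA processing and tRNA ligation all had small negative fold changes that were not called. DDX5 and DDX17, paralogs that work with the Drosha complex and as transcription cofactors, had log2 fold changes of -0.17 ± 0.16 and -0.23 ± 0.14. DDX1, part of the tRNA ligase complex, was at 270.7 and 171.2 CPM in the controls and 228.0, 209.0 and 134.4 CPM in the knockdowns. Its log2 fold change was -0.33 ± 0.14 (adjusted p 0.210, edgeR), and the groups overlapped.

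Nucleolar helicases that process ribosomal RNA made up the largest group, with 13 genes of which 0 were called. Their median log2 fold change was 0.02, with 7 positive and 6 negative values. DESeq2 called 3 of them higher, beside 6.75% of all the genes it tested. These 3 genes had the highest folds of the set. DDX51, needed to mature the 3′ end of 28S rRNA, was at 9.20 and 16.7 CPM in the controls and 20.6, 19.8 and 22.8 CPM in the knockdowns. Its knockdown libraries all exceeded both controls, and its within-series log2 ratios were 1.15, 1.09 and 0.45. All 3 ratios were at least 0.3 for 1 of the 33 helicases, DDX51, beside 9.24% of all genes. They were at most -0.3 for 3 (DDX3X, DDX25 and DDX47), beside 9.07%, and for 2 without DDX47, whose direction the filter on low counts fixed. DDX3X is the target of the hairpins, so only DDX25 is left without both. The fitted log2 fold change of DDX51 was 0.83 ± 0.22 with an adjusted p of 0.0876 (edgeR) and 0.0357 (DESeq2).

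DDX49, a helicase that acts on precursor rRNA and mRNA export, was at 43.3 CPM in control 1 and 129.1 CPM in control 2. In the knockdowns it was at 117.6, 130.1 and 152.7 CPM. Control 1 was far below the remaining 4 libraries, among which control 2 sat in the middle of the range. The log2 fold change was 0.95 ± 0.26 (adjusted p 0.0940, edgeR, and 0.00701, DESeq2), the highest of the 33. DDX54, a nucleolar helicase that also binds nuclear receptors, had the same form. It was at 34.1 and 124.8 CPM in the controls and 107.9, 111.3 and 117.3 CPM in the knockdowns, with a log2 fold change of 0.88 ± 0.35 (adjusted p 0.182, edgeR, and 0.0442, DESeq2). Its control 2 value was above all 3 knockdowns.

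**Figure D2:**
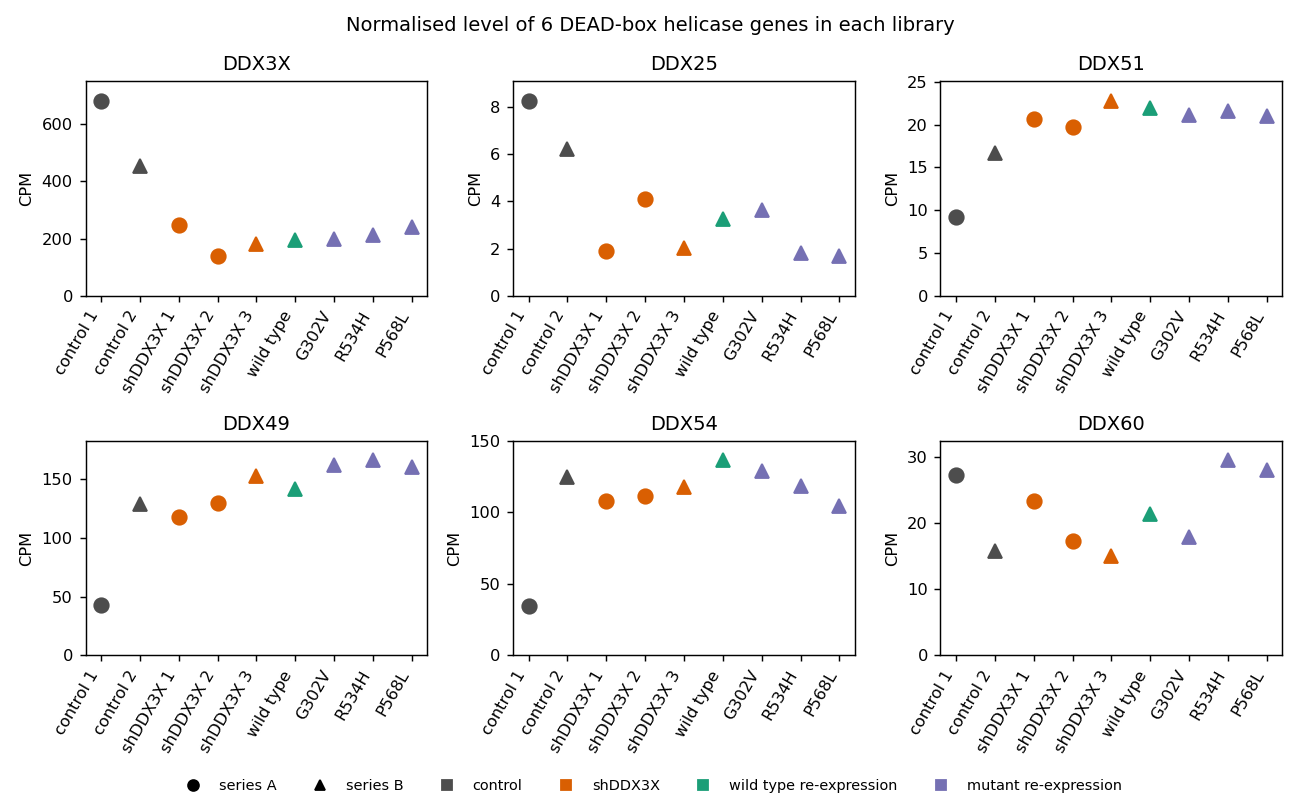
CPM of DDX3X, DDX25, DDX51, DDX49, DDX54 and DDX60 in each of the 9 libraries. Circles are series A and triangles series B, and colours give the group. For DDX49 and DDX54 control 1 lies at 43.3 and 34.1 CPM and every other library above 100 CPM, whereas for DDX51 both controls lie below the other 7 libraries.

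None of the remaining nucleolar genes was called (edgeR). DDX31 was at 46.9 and 53.0 CPM in the controls and 57.5, 56.1 and 63.3 CPM in the knockdowns, with a log2 fold change of 0.27 ± 0.18 (adjusted p 0.417, edgeR) and no overlap. DDX27, which works in large subunit assembly, was also separate but with a log2 fold change of only 0.12 ± 0.15. DDX24 was at 367.3 and 322.2 CPM in the controls and 259.7, 358.6 and 228.1 CPM in the knockdowns. Its log2 fold change was -0.36 ± 0.17 (adjusted p 0.255, edgeR), and shDDX3X 2 lay between the controls. DDX50 was at 60.5 and 41.2 CPM in the controls and 43.3, 55.4 and 27.8 CPM in the knockdowns, with a log2 fold change of -0.41 ± 0.20 (adjusted p 0.273, edgeR).

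DDX47 stood just above the filter, at 1.56 and 1.38 CPM in the controls and 0.91, 0.92 and 0.95 CPM in the knockdowns. It reached 1 CPM in the 2 controls alone and so passed the filter through the group where it is high. Its lower knockdown values, with a log2 fold change of -0.68 ± 0.46 (adjusted p 0.424, edgeR), therefore support nothing, and the same holds for its other folds given here. DDX10, DDX18, DDX21, DDX55 and DDX56 had log2 fold changes between -0.15 and 0.25, and the groups of each overlapped. DDX21, an abundant helicase that couples RNA polymerase I and II transcription to rRNA processing, was at 382.7 and 323.6 CPM in the controls and 414.4, 520.1 and 258.2 CPM in the knockdowns, higher than its own control with both series A hairpins and lower in series B.

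The remaining groups are small. DDX28, which builds the large subunit of the mitochondrial ribosome, had a log2 fold change of 0.13 ± 0.29. The cohesion helicase DDX11 and the cilium-associated DDX59 had 0.11 ± 0.23 and 0.10 ± 0.25. DDX60 and DDX60L, interferon-inducible genes of antiviral defence, had -0.28 ± 0.26 and 0.18 ± 0.39. None of these 5 passed the test, and the knockdown and control libraries overlapped for each.

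Counting all 33 helicases, 3 were higher in every knockdown library than in both controls (DDX27, DDX31 and DDX51), beside 10.1% of all genes tested, and 6 were lower (DDX3X, DDX19B, DDX23, DDX25, DDX39B and DDX47), beside 10.8%. DDX47 is in the second count through the filter on low counts, and 5 are left without it. DDX3X is in that count as the target of the hairpins. Without both, DDX19B, DDX23, DDX25 and DDX39B are left. Whether either count differs from the share of all genes was not tested.

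The GC content of the transcripts moved with the difference between the controls. Across the 33 helicases the log2 ratio of control 1 to control 2 had a Spearman correlation of -0.90 with the GC content of the longest transcript, and across 15784 genes it was -0.68. These are correlations across genes of the same library pair, given as a description. The ratio of control 1 to control 2 was -1.86 for DDX54 (60.6% GC), -1.57 for DDX49 (61.7% GC) and -0.84 for DDX51 (58.7% GC), and it was 0.59 for DDX3X (39.3% GC). The fitted fold change of knockdown against control correlated with GC content at 0.54 among the helicases, and the ratio of shDDX3X 3 to control 2, which does not involve control 1, at 0.12.

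With each library's GC trend removed before the fit, the log2 fold changes became 0.39 for DDX49, 0.51 for DDX51 and 0.42 for DDX54, with adjusted p-values of 0.187, 0.160 and 0.313 (edgeR). DDX3X was then at -1.43 with an adjusted p of 0.0178 and DDX25 at -1.43 with 0.118 (edgeR). Without control 1 the values were 0.24 for DDX49, 0.45 for DDX51 and -0.09 for DDX54. DDX49 and DDX51 had positive folds under both, DDX54 turned negative without control 1, and none of the 3 was called in either.

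Re-expression of wild type DDX3X was set against knockdown. DDX3X reads stood at 195.2 CPM in the wild type library, beside 182.5 CPM in shDDX3X 3 of the same series, a log2 ratio of 0.10. Against control 2 the log2 ratio was -1.21, so the total of DDX3X reads stayed well below that control. Transgene and endogenous transcripts are counted together, so these counts do not separate them. The fitted log2 fold change against the 3 knockdowns was 0.24 ± 0.34, and DDX3X was not called. None of the 33 helicases was called in edgeR (0.00% of all genes tested), 0 had an unadjusted p below 0.05 against 2.92% of all genes, and DESeq2 called 0 (0.0186% of all genes). Against knockdown, 12 had a positive and 21 a negative fold change, with a median of -0.08. Without shDDX3X 3, 2 of the 33 were called lower (DDX49 and DDX54, edgeR), beside 3.71% of all genes called in either direction. The single wild type library is assumed to share the spread of the other groups.

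The highest folds in the wild type comparison were those of DDX25 and DDX60. DDX25 was at 3.26 CPM with wild type, within the range of the knockdowns (1.90 to 4.11 CPM) and below both controls, with a log2 fold change of 0.64 ± 0.66. DDX60 was at 21.4 CPM, also within the knockdown range of 15.1 to 23.3 CPM, with a log2 fold change of 0.61 ± 0.37. The lowest folds were DDX47 at -0.61 ± 0.77, on 0.58 CPM, and DDX49 at -0.50 ± 0.36. For DDX49 the wild type library (141.5 CPM) was above the knockdown mean (133.5 CPM). The fit includes the series term, and within series B the log2 ratio of wild type to shDDX3X 3 was -0.11. Without the series term the log2 fold change of DDX49 was 0.08.

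**Figure D3:**
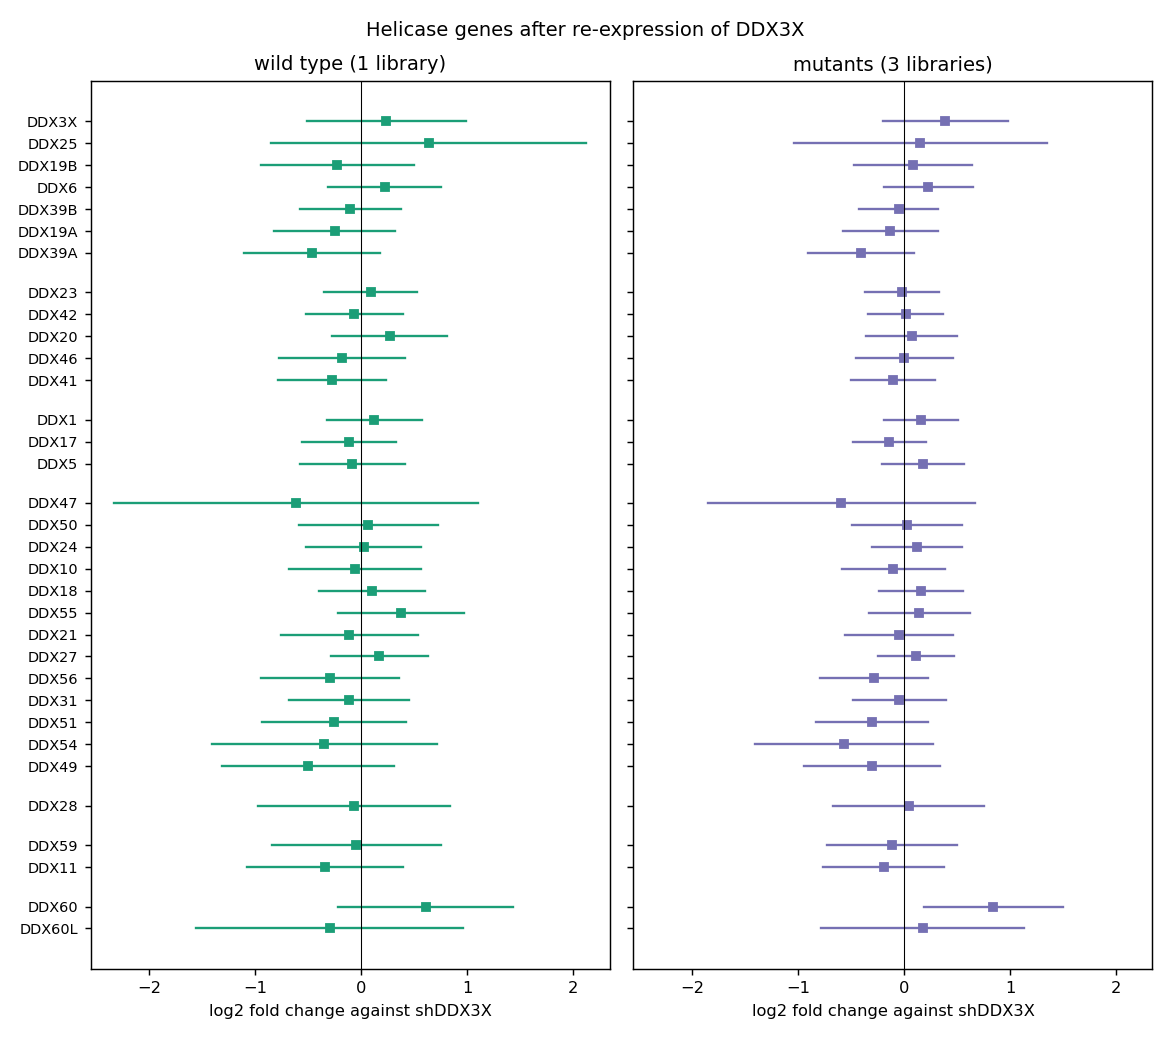
Log2 fold change against shDDX3X for the 33 helicases with wild type (1 library) and mutant (3 libraries) DDX3X, with 95% confidence intervals. All intervals for wild type include 0, and for the mutants only that of DDX60 does not.

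Against the knockdowns the 3 mutants showed a similar lack of calls. DDX3X was at 197.8 CPM with G302V, 211.4 CPM with R534H and 241.8 CPM with P568L, all above shDDX3X 3 and within the range of the 3 knockdowns. The log2 fold change was 0.39 ± 0.27 (adjusted p 0.842, edgeR). None of the 33 was called (0.00% of all genes tested, edgeR), and DESeq2 also called 0 (0.142% of all genes). At an unadjusted p below 0.05, 1 helicase was found, DDX60, beside 5.53% of all genes. Folds were positive for 17 and negative for 16, with a median of 0.00. The upper confidence limit lay under 2-fold for 29 of the 32 helicases other than DDX3X, beside 12156 of all 16155 genes tested. Without shDDX3X 3, DDX49 and DDX54 were called lower here too (2 of 33, edgeR), beside 6.2% of all genes called in either direction.

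DDX60 and its neighbour in the family DDX60L are induced by interferon. DDX60 was at 17.9 CPM with G302V, 29.6 CPM with R534H and 28.1 CPM with P568L, beside 23.3, 17.3 and 15.1 CPM in the knockdowns and 27.4 and 15.9 CPM in the controls. R534H and P568L lay above all other libraries and G302V among the knockdowns. The log2 fold change against knockdown was 0.84 ± 0.29 with an unadjusted p of 0.0171 and an adjusted p of 0.831 (edgeR). DDX60L was at 6.53 CPM with G302V, 16.7 CPM with R534H and 17.4 CPM with P568L, beside 17.1, 11.7 and 13.1 CPM in the knockdowns and 9.79 CPM with wild type. G302V thus had the lowest DDX60L value of the 9 libraries. With 1 library for each mutant, a difference between mutants has no replicate check.

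DDX54 and DDX47 had the lowest folds in the mutants. DDX54 was at 129.0, 118.7 and 104.3 CPM with G302V, R534H and P568L, around the knockdown values. Its fitted log2 fold change of -0.56 ± 0.38 was 0.06 without the series term. The within-series log2 ratios to shDDX3X 3 were 0.14, 0.02 and -0.17. DDX47 was at 0.85, 0.42 and 0.54 CPM with the mutants, under the 0.91 to 0.95 CPM of the knockdowns, with a log2 fold change of -0.59 ± 0.57.

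The mutants share their controls with the knockdown comparison, so values against control are given side by side and not as further evidence. In mutants against control none of the 33 helicases was called by edgeR (0.0186% of all genes tested), and DESeq2 called DDX3X lower, as it did 0.513% of all genes it tested. Without control 2, edgeR called 2 helicases higher (DDX49 and DDX54), and without shDDX3X 2 it called 1 lower (DDX3X), beside 4.84% and 0.337% of all genes called in either direction. At an unadjusted p below 0.05, 2 were higher and 4 lower, beside 6.18% and 5.73% of all genes. Leaving DDX3X aside, 3 were lower. Of these, 1 was nucleolar, the role whose lowest fold was that of DDX47 (-1.27). DDX47 passed the filter on low counts through the controls alone, so its place below control supports nothing. DDX3X had a log2 fold change of -1.21 ± 0.26 in mutants and -1.60 in knockdowns against control, DDX25 -1.37 ± 0.49 and -1.52, and DDX47 -1.27 ± 0.54 and -0.68. DDX49 had 0.65 ± 0.27 and 0.95, DDX51 0.53 ± 0.23 and 0.83, and DDX60 0.56 ± 0.30 and -0.28. DDX25 was at 3.63, 1.80 and 1.69 CPM with G302V, R534H and P568L, below both controls in all 3. DDX49 was at 162.0, 166.3 and 160.4 CPM and DDX51 at 21.2, 21.6 and 21.0 CPM, each above both controls.

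**Figure D4:**
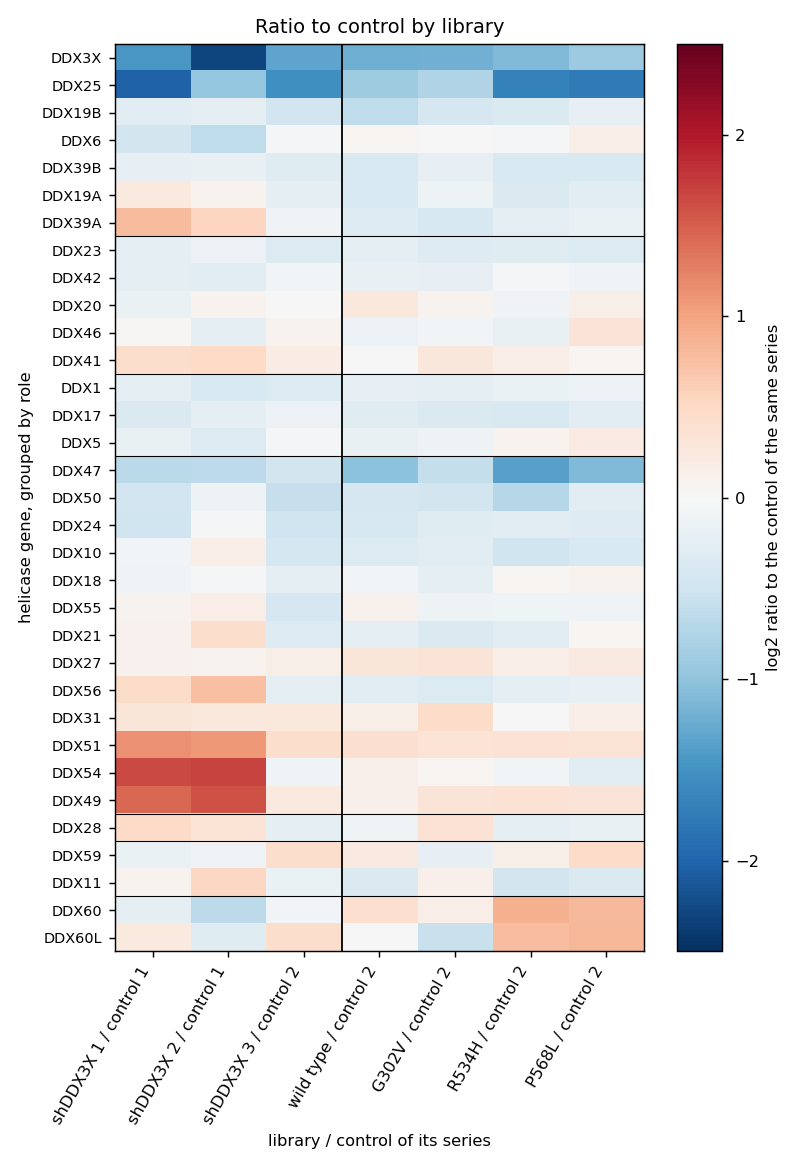
Log2 ratio of each knockdown and re-expression library to the control of its series for the 33 helicases, grouped by role (blue lower, red higher). DDX3X and DDX25 are lower in all 7 columns, and so are DDX1, DDX17, DDX19B, DDX23, DDX24, DDX39B, DDX42, DDX47 and DDX50. DDX47 passed the filter on low counts through the controls. DDX51 is higher in all 7, and so are DDX27 and DDX49. DDX54 and DDX49 are deep red only in the 2 columns that use control 1. The share of all genes with 1 sign in all 7 columns was not determined.

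Between mutant and wild type DDX3X none of the 33 helicases was called (0.00% of all genes tested, edgeR), 0 had an unadjusted p below 0.05 against 1.95% of all genes, and DESeq2 called 0 (0.00% of all genes). The highest folds were DDX60L at 0.47 ± 0.51 and DDX19B at 0.31 ± 0.29, the lowest DDX25 at -0.48 ± 0.58 and DDX55 at -0.23 ± 0.23. DDX55, a large subunit helicase, was at 38.7 CPM with wild type and 32.6, 33.3 and 32.9 CPM with the mutants. DDX19B was at 9.67 CPM with wild type and 11.2, 11.7 and 13.1 CPM with the mutants. In both the 3 mutants lay on one side of the single wild type library, which 24.0% of all genes did upward and 25.0% downward. The log2 fold change of DDX3X was 0.15 ± 0.31, with limits of -0.53 and 0.83.

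Relatives of the set give the wider frame. DDX3Y, the closest paralog of DDX3X, had at most 1 read in any library, which is within the limit of 3 reads that a count of 0 allows (0.230 to 0.365 CPM, counting error only). The germ cell helicases DDX4 and DDX43 had at most 3 and 2 reads. Of 8 DEAD-box genes outside the set, 5 could be tested and 0 were called in knockdown against control by edgeR or DESeq2. Of all genes tested, edgeR called 0.675%, and DESeq2 called 6.75% higher and 2.25% lower. The translation factor EIF4A2 was at 443.8 and 290.2 CPM in the controls and 235.3, 402.0 and 282.5 CPM in the knockdowns (log2 fold change -0.29 ± 0.22), and EIF4A3 of the exon junction complex had -0.01 ± 0.15. EIF4A1 had 0.65 ± 0.39 on only 5.08 to 17.3 CPM in the controls and knockdowns, and its reads may be split with a readthrough gene that shares its exons. DDX58, which encodes the RNA sensor RIG-I, had -0.52 ± 0.31, and DDX53 had -2.54 ± 0.86 on 5.30 and 2.76 CPM in the controls and 0.66, 2.26 and 0.00 CPM in the knockdowns.

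Of 18 DEAH-box helicases and relatives, edgeR called 0, beside 0.675% of all genes tested. DESeq2 called 3 higher (DHX30, DHX34 and DHX37), beside 6.75% of all the genes it tested. Folds were positive for 9 and negative for 9, with a median of 0.01. DHX37, needed for small subunit assembly, was at 37.7 and 115.6 CPM in the controls and 117.7, 125.9 and 153.1 CPM in the knockdowns, with a log2 fold change of 1.12 ± 0.28 (adjusted p 0.0775, edgeR). DHX34, a factor of nonsense-mediated decay, had 1.00 ± 0.25 (adjusted p 0.0737, edgeR). Both have a low control 1 and a GC content of 61.3% and 61.5%, as DDX49 and DDX54 do; the part of GC content in these folds was not tested. The lowest folds were DHX35 at -0.60 ± 0.20 and DHX57 at -0.32 ± 0.15.

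Of 31 cofactors that bind or stimulate these helicases, edgeR called 0, beside 0.675% of all genes tested. DESeq2 called 1 higher (CSNK1E), beside 6.75% of all the genes it tested. Folds were positive for 13 and negative for 18, with a median of -0.04. CSNK1E, the casein kinase that DDX3X stimulates in Wnt signalling, was at 52.4 and 127.8 CPM in the controls and 123.3, 91.4 and 206.7 CPM in the knockdowns, with a log2 fold change of 0.89 ± 0.18 (adjusted p 0.0595, edgeR). ALYREF, the adaptor that works with DDX39B, had 0.61 ± 0.19 (adjusted p 0.115, edgeR). FAM98B, a partner of DDX1 in the tRNA ligase complex, had -0.56 ± 0.17 (adjusted p 0.103, edgeR), and PDCD4, an inhibitor of EIF4A, -0.56 ± 0.25 (adjusted p 0.227, edgeR).

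Some counts in the set are uncertain because the kit does not mark strand and genes overlap. In GENCODE v29, 14 of the 33 helicases share no exonic base with another gene, and 5 share more than 15% of theirs. These are DDX47 (36.5%, with APOLD1), DDX39B (30.8%, mainly a readthrough gene), DDX19A (26.9%), DDX28 (22.5%) and DDX19B (19.7%). DDX11 has near-identical copies elsewhere in the genome, and the handling of reads that fit several places is not given in the sources used here.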

How the data were processed

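The deposited files hold raw read counts per gene, 1 table for each of 9 libraries, for 57820 Ensembl identifiers. Per the labels' protocols, the authors enriched polyadenylated RNA, used the TruSeq version 2 kit, which does not mark strand, and read single ends. Tools listed in the submitters' processing notes are HISAT2, HTSeq, bcl2fastq and DESeq2, and the builds are GRCh37 and hg19. Versions and settings are not given there. The HTSeq summary lines that name no gene (20.3% to 35.8% of reads) were left out. GENCODE v29, which matched 52338 identifiers (90.52%), is on GRCh38 and served only for symbols, GC content, exon length, exon overlap and the DDX3X codons.

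Counts were normalised by TMM, genes that reached 1 CPM in 2 or more libraries were kept, and edgeR 4.0.16 (R 4.3.3) fitted group and series to all 9 libraries with its robust quasi-likelihood test (4 residual degrees of freedom, median prior 5.85). Adjusted p-values follow Benjamini and Hochberg over 16155 genes with a threshold of 0.05, and intervals are 95% confidence intervals. The CPM values given here are TMM-scaled. Only the filter and the limit for a count of 0 used each library's unscaled total in genes. Within-series log2 ratios used TMM-scaled CPM with a prior count of 2. DESeq2 1.42.0 and the fits named under the dependence on processing were alternatives. The test was also run on simulated counts that held no series difference and no GC trend. That run cannot show how the test behaves where these are present, as they are here. No library pair of a group looked like a copy: chi-square over degrees of freedom was 10.6 to 93.5.

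The set, its roles and the 3 lists outside it were chosen with earlier results of these data known. By rule, values in the groups compared are given for DDX3X, called genes and the 6 highest and 6 lowest folds after knockdown. They are also given for the 2 highest and lowest folds elsewhere, and for genes with separate groups and consistent ratios. Further helicases were named for their roles. Of each outside list the 2 highest and 2 lowest folds are named. Some related genes (EIF4A2, DDX3Y, DDX4, DDX43) were added after their values were seen.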

Additional observations from a re-analysis of the deposited data

Results flagged for a closer look

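The effect of knockdown differed between the 2 series for DDX49 and DDX54. This difference was tested with an interaction term in edgeR's quasi-likelihood fit, a test added after the data were seen, which compares shDDX3X 3 against control 2 (series B) with shDDX3X 1 and 2 against control 1 (series A). For DDX49 the series B log2 effect minus that of series A was -1.28 (adjusted p 0.0412, edgeR), and for DDX54 it was -1.77 (adjusted p 0.0111, edgeR). The same term called 516 of 16155 genes, 2 of the 33 helicases among them. Series A has 1 control and series B has 1 control and 1 knockdown library, so the series, the parental or vector control and single libraries cannot be told apart.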

How the results depend on the processing

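In knockdown against control, the count of helicases called was 1 with DESeq2 size factors and with each library's GC trend removed (0.495% and 1.83% of all genes). It was also 1 in the fit with a replicate block in place of the series term (0.198% of all genes, DDX3X -1.58, adjusted p 0.0326, edgeR). It was 4 with DESeq2 (9% of all genes called) and 5 with no filter on low counts (DDX25 also called, 5.79% of all genes). It was 0 for genes with a mean of at least 5 CPM, without the series term and with only the groups compared (0.145%, 0.0371% and 0% of all genes). In these DDX3X was at -1.61, -1.58 and -1.60 (adjusted p 0.0556, 0.145 and 0.305, edgeR). Leaving out each library in turn gave 0 to 4 helicases, with DDX3X between -1.82 and -1.31. The count was 0 without control 1, G302V, R534H or P568L, and 4 (DDX3X, DDX49, DDX51 and DDX54) without control 2 or shDDX3X 3 (12.9% and 13.0% of all genes). Without G302V, R534H and P568L in turn, 0.056%, 0.0374% and 0.00621% of all genes were called. The omissions of control 2 and of shDDX3X 3 both leave shDDX3X 1 and 2 against control 1, so they are 1 contrast. That of control 1 leaves shDDX3X 3 against control 2. Over the same omissions DDX54 ranged from -0.091 to 1.68 and DDX39A from -0.098 to 0.67, each turning negative without control 1.

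In wild type and in mutants against knockdown, leaving out each library gave 0 to 2 helicases, with 2 (DDX49 and DDX54, lower) without shDDX3X 3 (3.71% and 6.2% of all genes). DDX49 turned to 0.084 without the series term in the wild type comparison, and DDX54 to 0.065 without that term and 0.0015 with only the groups compared in the mutant comparison. In mutants against control, 1 helicase (DDX3X) was called with DESeq2, with no filter and with only the groups compared (1.03%, 1.99% and 2.59% of all genes). Without shDDX3X 2, 1 was called (DDX3X, 0.337% of all genes). Over the omissions of single libraries DDX49 ranged from 0.334 to 1.61 and DDX54 from -0.092 to 1.68. In mutants against wild type no alternative run called a helicase.

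Replicate numbers did not pair the samples: deviations from group means correlated at 0.35 for number 1 and -0.26 for number 2, and 2 numbered samples lie in different series. The controls number 2 and the wild type 1, which limits the precision of every fold.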
